A study of Mus musculus with 30 samples.

Results

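Ruminococcaceae, a family of the order Clostridiales, was followed in the feces of 30 mice by 16S rRNA gene sequencing. Its members here were all amplicon sequence variants (ASVs, the units of the deposited table, which names them so) that the authors' taxonomy placed in this family and that had at least 1 count in the 30 mice, which gave 598 of 12980 ASVs. All mice were female C57BL/6 mice with an age of 6 weeks in the labels, and there were 6 mice in each of 5 groups. According to the paper the mice had this age when bought, and stool was gathered later, when treatment ended. Control mice had a normal diet and saline, and model mice had a high-fructose diet (HFru) and saline. The other 3 groups had HFru and a compound by gavage, with a dose of 50 mg/kg for salidroside, 23 mg/kg for tyrosol and 26 mg/kg for hydroxytyrosol, so that HFru was common to all groups but the control. Tyrosol is a phenylethanoid, salidroside is its glucoside, hydroxytyrosol carries 1 more phenolic hydroxyl group, and the doses were set at molar equivalents. The labels give neither cages nor sequencing batches, and p-values below measure the spread between these mice.

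Ruminococcaceae are obligate anaerobes of the gut that ferment plant polysaccharides and other carbohydrates. Several of its genera, among them Faecalibacterium, Subdoligranulum and Butyricicoccus, are known producers of butyrate, a short-chain fatty acid that the colon epithelium uses as fuel. Ruminococcus includes degraders of cellulose and starch, and Oscillospira is known mostly from sequence surveys of the gut and rumen. The bracketed genus [Ruminococcus] of the same taxonomy belongs to Lachnospiraceae and was not counted with the family. The ASVs are named by the numbers of the deposited table, and no sequence is printed for them.

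The filtered count table held between 41862 and 106609 counts per mouse, and the control libraries (41862 to 83876) were shallower than the model libraries (87731 to 104427). A share is a percent of a mouse's counts, and a taxon with 0 counts could still have a share of up to 0.00281% to 0.00717%, depending on the mouse. Intervals for single mice are 95% Wilson intervals, and they and these limits cover counting error only. Shares sum to a fixed total, and 10 families of aerobic or facultative bacteria, such as Moraxellaceae, took a mean of 54.0% of the counts in control mice (9.68% to 92.2%) and between 73.6% and 82.0% in the other groups. Control mice 1 and 6 stood at 92.2% and 86.6%, inside the range of the model group (61.5% to 93.4%). A share cannot tell fewer bacteria of the family from more bacteria of other families.

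Ruminococcaceae made up between 0.0174% and 4.04% of the counts of a mouse. In control mice it was lowest at 0.165%, had a median of 1.54% and reached 4.04%. In model mice the lowest value was 0.0174% (17 counts, 95% interval 0.0109% to 0.0279%), the median 0.464% and the highest 2.01%. Control mice 1 and 6, the 2 with the most counts of aerobic families, were the 2 lowest of their group, and the part of those families in the result was not tested. Salidroside mice ranged from 0.142% through a median of 0.757% to 1.46%. Tyrosol mice ranged from 0.960% through 1.48% to 2.43%, and hydroxytyrosol mice from 0.755% through 1.32% to 2.12%. The lowest tyrosol mouse thus lay above 5 of the 6 model mice.

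**Figure D1:**
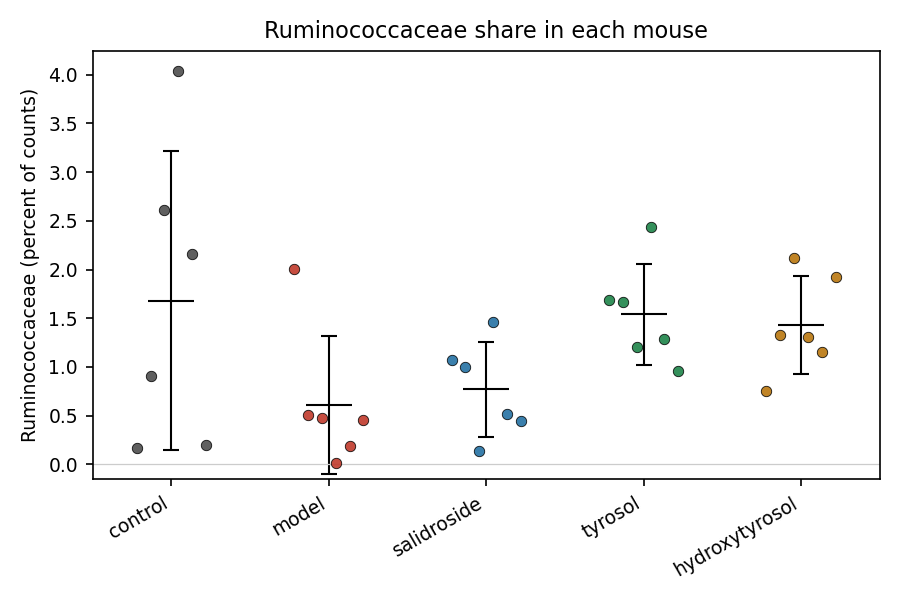
Ruminococcaceae as a percent of counts (vertical axis) in each of the 6 mice of the 5 groups, with the mean (long bar) and SD (whiskers). All tyrosol mice and all hydroxytyrosol mice lie above 5 of the 6 model mice, and model mouse 1 at 2.01% stands apart from its group.

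The mean family share was 1.68% ± 1.53 (SD, n = 6) in control and 0.609% ± 0.712 in model mice, a difference of -1.07 percentage points with a 95% interval of -2.72 to 0.461 (two-sided exact permutation test, p = 0.132, adjusted over 56 families 0.274). Without control mouse 4 it was -0.601 points. The difference was 0.344 points, with model mice higher, when the aerobic or facultative families were taken out of the total. The mean was 0.772% ± 0.489 with salidroside, 1.54% ± 0.519 with tyrosol and 1.43% ± 0.506 with hydroxytyrosol. Tyrosol mice differed from model mice by 0.931 points (0.0922 to 1.7, higher in 31 of 36 pairs of mice), with an unadjusted exact permutation p of 0.0303 and an adjusted p of 0.195, where 15.5% of the 58 families had an unadjusted p under 0.05. Leaving out 1 mouse at a time kept this unadjusted exact p between 0.00433 and 0.0606, and it was above 0.05 without tyrosol mouse 1, 2 or 4 or model mouse 3, 4, 5 or 6. With Acinetobacter taken out of the total the exact p was 0.0584. For hydroxytyrosol the difference was 0.822 points (-0.00205 to 1.55, exact p = 0.0519, adjusted 0.185), and for salidroside 0.162 points (-0.633 to 0.908, exact p = 0.667, adjusted 0.773). Over the 5 groups, the Kruskal-Wallis permutation test of the family share gave p = 0.0909. The edgeR quasi-likelihood test on counts per family gave no adjusted p under 0.05 for the family in any of the 7 comparisons, with log2 fold changes from -0.88 to 1.19 and the smallest adjusted p at 0.353 for tyrosol against model mice.

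Of the 598 ASVs, 214 belonged to Oscillospira, 81 to Ruminococcus, 9 to Faecalibacterium, 6 to Clostridium of this family, 5 to Subdoligranulum, 4 to Anaerotruncus, 2 to Gemmiger and 2 to Butyricicoccus, and 275 carried no named genus. By counts the order differed. Pooled over the 30 mice, which weights deep libraries and mice rich in the family, Oscillospira held 65.5% of the family's counts, the unclassified part 16.2%, Ruminococcus 13.5% and Subdoligranulum 3.60%, and each other genus held under 1%. By the mean share over the mice, Ruminococcus (0.198%) and the unclassified part (0.194%) were nearly level, and in control mice the mean of Ruminococcus (0.825%) was above that of Oscillospira (0.689%).

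Oscillospira, the leading genus, had its highest group means with tyrosol and hydroxytyrosol. Its share ran from 0.682% through a median of 1.17% to 1.89% in tyrosol mice, and from 0.497% through 0.980% to 1.77% in hydroxytyrosol mice. In model mice it ran from 0 counts in mouse 4 through 0.257% to 0.989% in mouse 1. Control mice (0.0359%, 0.621% and 1.77% as lowest, median and highest) and salidroside mice (0.0272%, 0.521% and 1.30%) overlapped with all of these groups. Tyrosol mice averaged 1.22% ± 0.406 (n = 6) against 0.310% ± 0.355 in model mice and were higher in 35 of 36 pairs. The difference of 0.911 points (0.410 to 1.39) had an exact permutation p of 0.00433 and an adjusted p of 0.0693 over 96 genera. Hydroxytyrosol mice averaged 1.05% ± 0.434 (exact p = 0.0108, adjusted 0.113) and were higher in 33 of 36 pairs. Without model mouse 1, the highest of its group, the differences were 1.05 points for tyrosol and 0.872 for hydroxytyrosol. The salidroside mean of 0.551% ± 0.434 differed from the model mean by 0.241 points (-0.277 to 0.747, exact p = 0.303). The permutation test over the 5 groups gave p = 0.00785 for this genus.

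Ruminococcus, which includes fibre degraders, was highest in 4 of the 6 control mice. Its share in control mice was 0.0642%, 0.334%, 1.44%, 1.80%, 1.30% and 0.00717% in mice 1 to 6. The 24 mice on HFru all had 0.211% or less. Control mice 2 to 5 thus lay above every mouse on HFru, and control mice 1 and 6 lay within the range of those mice. The mean was 0.825% ± 0.781 in control and 0.0639% ± 0.0855 in model mice (difference -0.761 points, -1.52 to -0.0197, exact permutation p = 0.0368, adjusted over 90 genera 0.123). Leaving out 1 mouse at a time gave exact p-values from 0.013 to 0.0736, above 0.05 without any 1 of control mice 2 to 5 or model mice 3 to 6. The means with salidroside (0.0316% ± 0.0422), tyrosol (0.0245% ± 0.0146) and hydroxytyrosol (0.0447% ± 0.0207) differed from the model mean by -0.0323, -0.0393 and -0.0192 points, with exact p-values of 0.442, 0.420 and 0.645.

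Subdoligranulum, a butyrate producer, was nearly absent from both untreated groups. It had 1 count in 1 control mouse and 10 counts in 2 model mice, and its share was at most 0.00512% in these 12 mice. It was found in 5 of 6 salidroside mice with up to 0.0764%. All tyrosol mice held it (0.00775% to 0.289%, median 0.0459%), and all hydroxytyrosol mice (0.0348% to 0.129%, median 0.0574%). Neither of these groups overlapped with the model mice, which was so for 4.17% of the 96 genera in the upward direction with tyrosol and for 3.19% of the 94 genera with hydroxytyrosol. The genus met the filter of 10 counts in 4 of 12 mice only through the treated mice. No model mouse held more than 5 counts. The lack of overlap and the p-values below thus come from a member that was selected through the groups where it was high. The mean differences of 0.0861 points (0.0221 to 0.169) and 0.0715 points (0.0369 to 0.122) each had an exact permutation p of 0.0022, the smallest this design can give, and adjusted p-values of 0.0519 and 0.0678. Without tyrosol mouse 4 the tyrosol difference was 0.0459 points (exact p = 0.00433, the smallest possible with 1 mouse left out). In edgeR's quasi-likelihood test the genus had log2 fold changes of 4.54 ± 1.59 (SE) with tyrosol and 4.70 ± 1.46 with hydroxytyrosol, with adjusted p-values of 0.120 and 0.0657. The salidroside group was not tested against model mice, since under 4 mice of these groups reached 10 counts. The permutation test over the 5 groups gave p = 2e-05.

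The ASVs of the family without a named genus were found in all 30 mice. The group means lay between 0.148% ± 0.0923 with salidroside and 0.252% ± 0.165 with hydroxytyrosol, and the permutation test over the 5 groups gave p = 0.288. The highest values were 0.805% in model mouse 1, 0.580% in hydroxytyrosol mouse 6 and 0.430% in control mouse 4. The other genera were sparse. Faecalibacterium had 168 counts in 13 mice, with up to 0.0508% in model mouse 5, and Anaerotruncus 95 counts in 7 mice. Butyricicoccus, another butyrate producer, had 27 counts, all in 3 control mice. These were 4, 10 and 13 counts in control mice 2, 3 and 4. Gemmiger had 43 counts in 2 model and 3 hydroxytyrosol mice, and Clostridium of this family 25 counts in 7 mice.

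**Figure D2:**
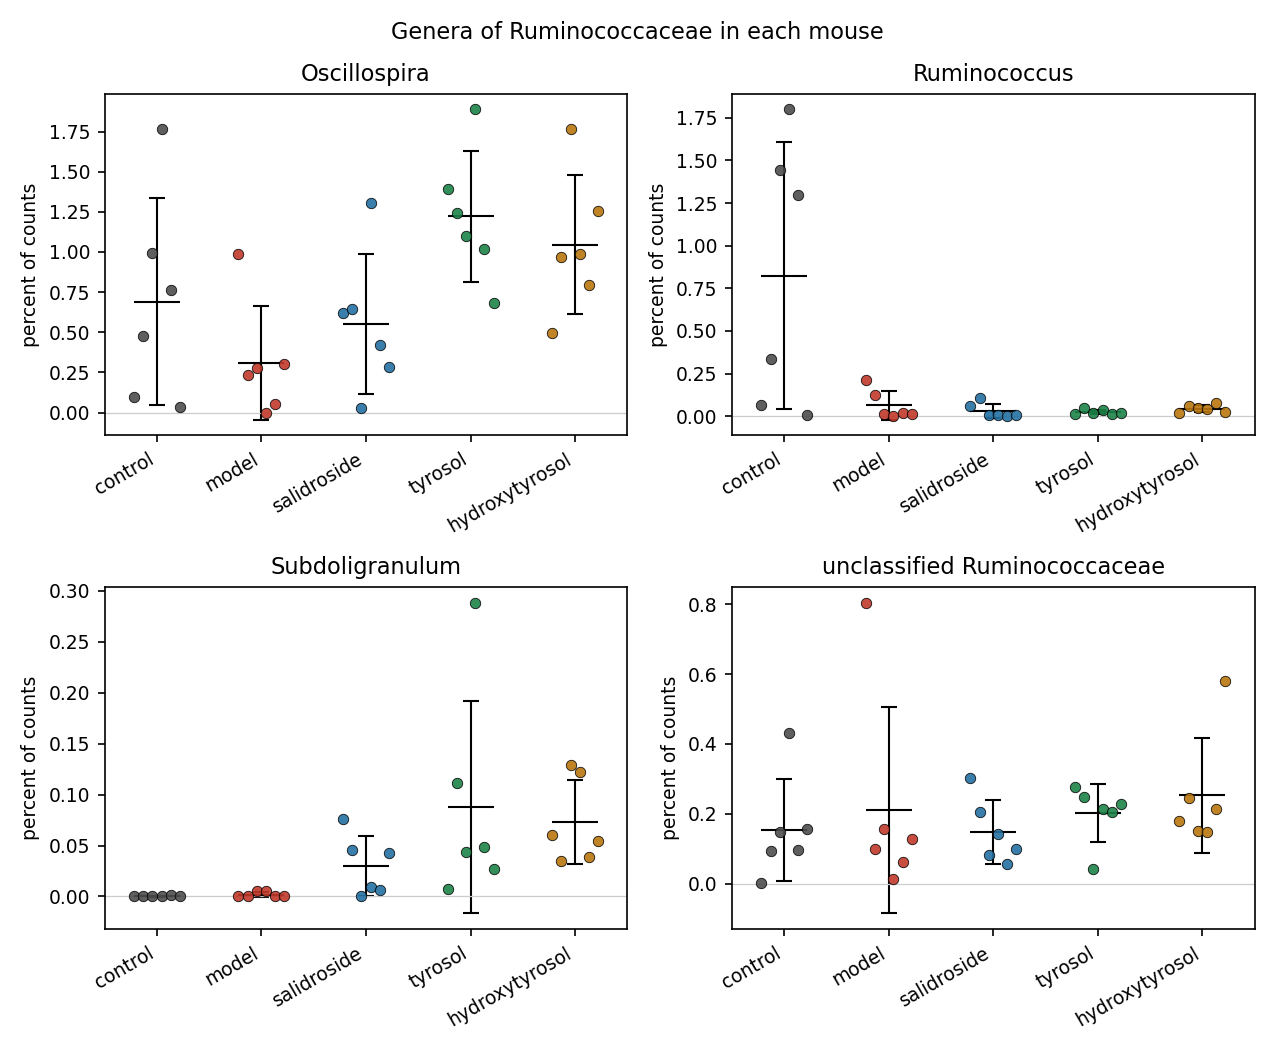
Percent of counts (vertical axes, each with its own scale) of Oscillospira, Ruminococcus, Subdoligranulum and the ASVs without a named genus in each mouse of the 5 groups, with mean and SD. Oscillospira has its highest group means with tyrosol and hydroxytyrosol, although control mouse 4 at 1.77% lies among their highest mice, Ruminococcus exceeds 0.211% only in 4 control mice, and Subdoligranulum is above 0.00512% only in treated mice.

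Counted over the genera and the unclassified part that passed the filter of 10 counts in 4 of 12 mice, 1 of 3 had an unadjusted exact permutation p under 0.05 for model against control mice, where 33.3% of all genera did. With tyrosol against model mice it was 2 of 4, where 18.8% of all genera did, and with hydroxytyrosol 2 of 5, where 22.3% did. Subdoligranulum was in both of these counts and met the filter through the treated mice alone. With salidroside against model mice it was 0 of 4, with 8.89% of all genera. Between the compounds it was 1 of 4 for salidroside against tyrosol (10.3% of all genera), 0 of 4 for hydroxytyrosol against tyrosol (15.6%) and 0 of 5 for salidroside against hydroxytyrosol (7.23%). After adjustment over all genera 0 of them passed in any comparison. The edgeR quasi-likelihood test on counts per genus called 0 of them as well. The share of all genera called by that test was 18.9% for model against control, 4.44% for salidroside, 2.08% for tyrosol and 4.26% for hydroxytyrosol against model, 0% for salidroside against tyrosol, 1.11% for hydroxytyrosol against tyrosol and 0% for salidroside against hydroxytyrosol. At an unadjusted p under 0.05, edgeR gave 1 of 3 for model against control mice (42.2% of all genera), 1 of 4 with tyrosol (22.9%), 1 of 5 with hydroxytyrosol (20.2%) and 0 of 4 with salidroside (11.1%) against model mice. Between the compounds it gave 0 for salidroside against tyrosol (13.8% of all genera), hydroxytyrosol against tyrosol (18.9%) and salidroside against hydroxytyrosol (9.64%). DESeq2 called Ruminococcus for model against control mice and Subdoligranulum for both tyrosol and hydroxytyrosol against model mice, with adjusted p-values of 0.0168, 0.00111 and 0.000656. Of all genera, DESeq2 called 38.9% for model against control, 8.33% for tyrosol and 12.8% for hydroxytyrosol against model.

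The makeup of the family was taken as the percent of its own counts, which does not depend on the other families of a mouse. Model mouse 4, with 17 counts of the family, was left out because makeup was given only for mice with 50 or more. Oscillospira made up 18.1% to 60.3% of the family in control mice and 27.0% to 66.6% in the 5 model mice. It made up 71.0% to 91.2% in tyrosol mice, all above the model mice, and 65.3% to 83.4% in hydroxytyrosol mice. With salidroside the range was 19.2% in mouse 3 to 89.1% in mouse 4. The mean rose from 49.6% ± 15.0 in model mice (n = 5) to 79.3% ± 7.01 with tyrosol (n = 6), a difference of 29.7 points (14.1 to 46.3, exact permutation p = 0.00433, adjusted over the 7 comparisons 0.0303). It rose to 72.0% ± 6.90 with hydroxytyrosol, by 22.4 points (6.97 to 38.3, exact p = 0.013, adjusted 0.0455). The tyrosol p is the smallest that 5 and 6 mice allow. The adjustment covered the 7 comparisons of Oscillospira alone, without those of Ruminococcus and the unclassified part. The salidroside mean was 63.0% ± 24.5, 13.4 points above the model mean (-15.9 to 38.9, exact p = 0.316, adjusted 0.439).

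Ruminococcus made up 36.6% to 60.2% of the family in control mice 1 to 5 and 3.61% in control mouse 6. It made up 2.31% to 24.6% in model mice and at most 10.4% in any treated mouse. The control mean of 39.8% ± 19.96 and the model mean of 10.3% ± 8.91 differed by -29.5 points (-49.6 to -6.31, exact permutation p = 0.0173, adjusted 0.0606). With tyrosol Ruminococcus made up 1.63% ± 0.836 of the family, a difference of -8.70 points from the model mice (exact p = 0.00866, adjusted 0.0606). The unclassified part made up 13.9% ± 6.93 with tyrosol and 30.6% ± 7.64 in model mice (exact p = 0.00866, adjusted 0.0606). The parts sum to a fixed whole, so a higher percent of Oscillospira lowers the others. As a percent of all counts, the unclassified part was 0.203% with tyrosol and 0.210% in model mice (exact permutation p = 0.989). Ruminococcus had an exact p of 0.420 on that scale.

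**Figure D3:**
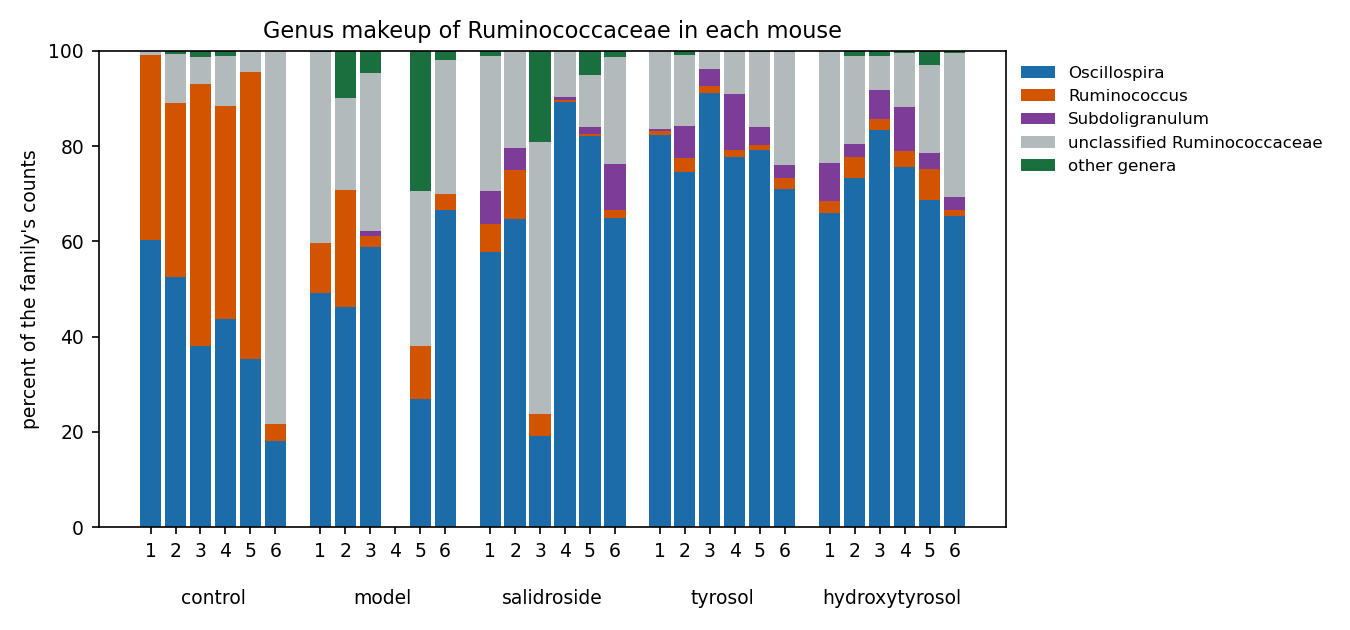
Makeup of Ruminococcaceae in each mouse, as stacked percents of the family's counts (vertical axis) for the named genera and the part without a genus; mice are numbered within groups, and model mouse 4 has no bar because it held under 50 counts of the family. Oscillospira fills 65.3% to 91.2% of the bars of tyrosol and hydroxytyrosol mice, and Ruminococcus fills 36.6% or more only in control mice 1 to 5.

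The number of ASVs of the family per mouse was counted in the table that the authors rarefied to 39768 counts per mouse, which holds 523 of the family's ASVs. Control mice had 11, 42, 67, 83, 49 and 7 ASVs in mice 1 to 6. Model mice had 3 to 40 (mean 26.7 ± 14.0), salidroside mice 12 to 42 (27.7 ± 12.8), tyrosol mice 25 to 46 (34.8 ± 6.91) and hydroxytyrosol mice 37 to 55 (45.0 ± 6.69). The control group thus held both the most and nearly the fewest, and the hydroxytyrosol group had the highest lowest value. Hydroxytyrosol mice had 18.3 more ASVs than model mice (4.5 to 33), with an exact permutation p of 0.0108 and an adjusted p of 0.192, where 17.1% of 76 families had an unadjusted p under 0.05. Their excess over tyrosol mice was 10.2 ASVs (1.5 to 19, exact p = 0.0346, adjusted 0.361), where 9.59% of 73 families had an unadjusted p under 0.05, and it lost p under 0.05 when hydroxytyrosol mouse 1, 2 or 5 or tyrosol mouse 1, 3, 4 or 6 was left out. In the filtered table, which is not rarefied, its exact p was 0.0996. Salidroside and hydroxytyrosol mice differed by -17.3 ASVs (-30.7 to -4, exact p = 0.0238, adjusted 0.399), where 5.97% of 67 families had an unadjusted p under 0.05. Model and control mice differed by -16.5 ASVs (-46 to 13, exact p = 0.253), and by -8.53 without control mouse 4.

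Lachnospiraceae, the other large family of Clostridiales in the table with 529 ASVs, was the nearest family for comparison. Its median share was 0.616% in control, 1.06% in model, 2.30% in salidroside, 1.59% in tyrosol and 3.25% in hydroxytyrosol mice, and single mice reached 14.6% in the model and 3.84% in the control group. The log2 ratio of Ruminococcaceae to Lachnospiraceae counts, with 1 count added to each, averaged 0.77 ± 1.26 in control and -1.98 ± 2.11 in model mice. Control mice 1 to 5 were above 0, and 5 of the 6 model mice were below 0. The difference of -2.74 (-4.94 to -0.52) had an exact permutation p of 0.0195 and an adjusted p of 0.129 over the 7 comparisons. The ratio averaged -1.72 ± 1.17 with salidroside, -0.24 ± 0.91 with tyrosol and -1.30 ± 1.19 with hydroxytyrosol, and none of these differed from the model mean with an exact p under 0.05 (p = 0.810, 0.0996 and 0.511).

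**Figure D4:**
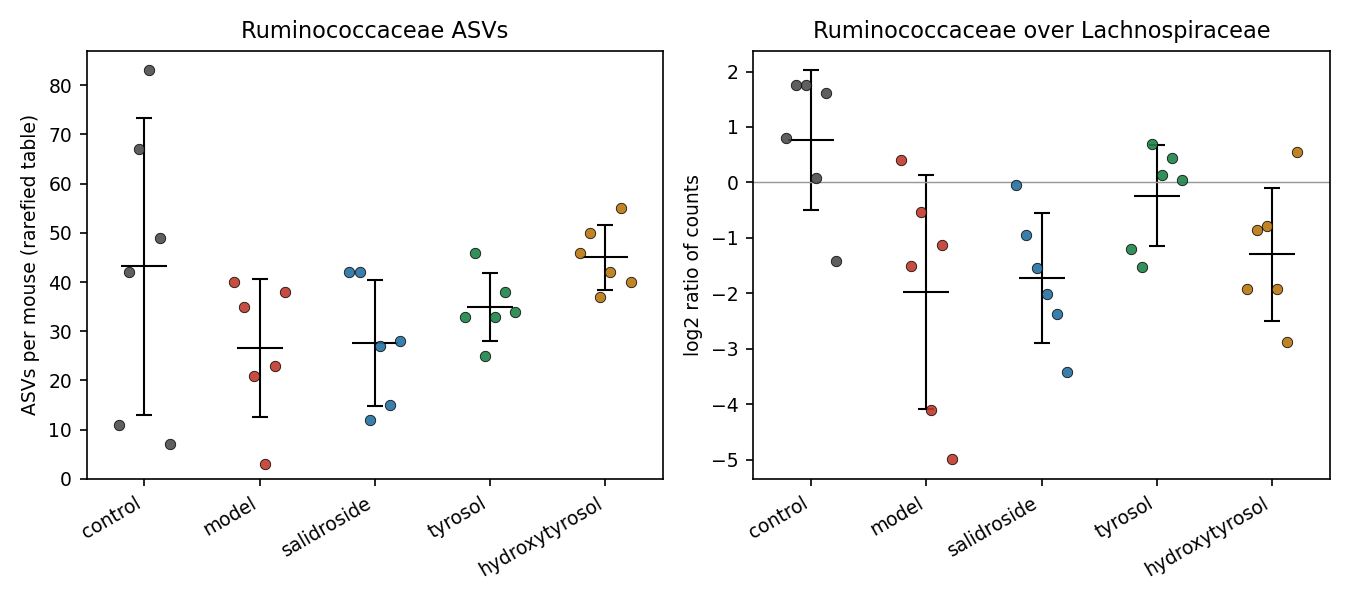
Left, number of Ruminococcaceae ASVs per mouse in the rarefied table; right, log2 ratio of Ruminococcaceae to Lachnospiraceae counts with 1 count added to each; points are mice, long bars means and whiskers SD. ASV numbers spread from 7 to 83 in control mice and from 37 to 55 in hydroxytyrosol mice, and 5 control mice but only 1 model mouse lie above a ratio of 0.

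Most ASVs of the family were private to a mouse. Of the 598, 418 (69.9%) occurred in 1 mouse and 470 (78.6%) in 1 group, against 71.1% and 79.2% of all 12980 ASVs. The 11 ASVs found in all 5 groups held 25.7% of the family's counts, against 53.6% for the 4 such ASVs of Lachnospiraceae and 68.0% over all families. Of the 200 ASVs of control mice 51 (25.5%) also occurred in mice on HFru, and these were 11.4% of the 449 ASVs of those mice. For Oscillospira 36 of 91 control ASVs (39.6%) were shared with mice on HFru, and for Ruminococcus 5 of 36 (13.9%). Over all families 25.2% of 5154 control ASVs were shared. By counts the shared ASVs held 38.1% of the family in control mice and 38.8% in mice on HFru, against 81.7% and 77.8% of the counts of all families. These overlaps were not tested.

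The ASV with the highest mean share, ASV_5657 of Oscillospira, held 19.6% of the family's counts. It was absent from the 6 control mice and had 10 counts in 1 model mouse. Salidroside mice had 63, 10, 0, 806, 229 and 51 counts of it in mice 1 to 6. Tyrosol mice had 854, 16, 613, 1533, 46 and 241, and hydroxytyrosol mice 110, 11, 1232, 21, 9 and 47. The lowest share was 0.0152% in tyrosol mice and 0.0106% in hydroxytyrosol mice, beside 0.00987% in the highest model mouse. These 3 shares rest on 16, 9 and 10 counts, and counting error does not tell the last 2 apart. ASV_258, another Oscillospira ASV, had 0 counts in control and model mice. Its counts were 163, 0, 0, 0, 20 and 96 with salidroside, 0, 403, 63, 187, 364 and 20 with tyrosol and 0, 0, 161, 0, 113 and 0 with hydroxytyrosol.

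Of the other dominant Oscillospira ASVs, ASV_64186 occurred in all 5 groups with its highest mean with hydroxytyrosol (0.116%, all 6 mice). ASV_523 also occurred in all 5 groups, with 31, 31, 53 and 80 counts in control mice 2 to 5 and 281, 42, 102 and 73 in tyrosol mice 2, 4, 5 and 6. ASV_66705 was the most widespread, with counts in 25 of 30 mice and group means from 0.00578% in control to 0.0728% in hydroxytyrosol mice. ASV_936 had 666 counts in 4 hydroxytyrosol mice, 20 and 30 in control mice 3 and 5, 59 in model mouse 6, and 0 in the 12 salidroside and tyrosol mice. ASV_48978 occurred only in control mice, with 47, 225, 357 and 305 counts in mice 1, 3, 4 and 5. The leading Ruminococcus ASV, ASV_44232, had 48, 512, 220 and 145 counts in control mice 2 to 5, and besides these 2 counts in 1 model mouse. The leading unclassified ASV, ASV_71771, was highest in model mouse 1 (413 counts) and hydroxytyrosol mouse 6 (366 counts). ASV_68141, assigned to Subdoligranulum variabile, gave 1046 of the genus's 1086 counts, none of them in control or model mice. It was found in 5 salidroside, 5 tyrosol and 6 hydroxytyrosol mice; salidroside mouse 3 and tyrosol mouse 1 had 0 counts.

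**Figure D5:**
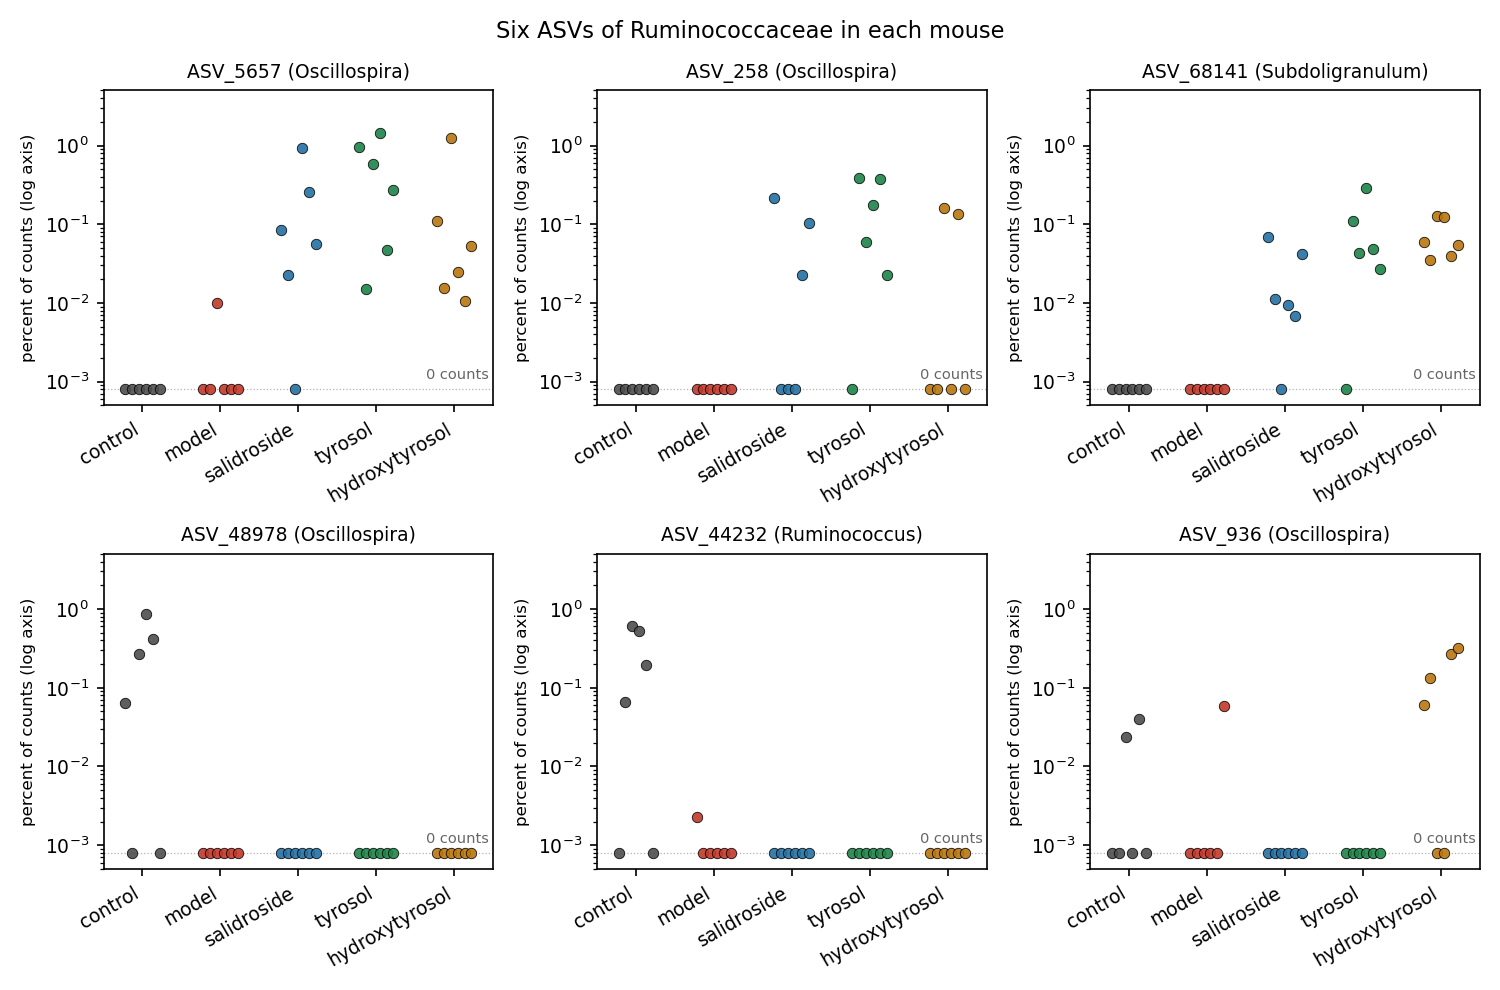
Percent of counts on a log axis (vertical) of 6 ASVs of Ruminococcaceae in each mouse of the 5 groups; mice with 0 counts are drawn on the dotted line at the bottom. ASV_5657, ASV_258 and ASV_68141 have counts in treated mice and at most 10 counts in all untreated mice, ASV_48978 and ASV_44232 have counts in 4 control mice, and ASV_936 is highest in hydroxytyrosol mice.

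In edgeR's quasi-likelihood test on single ASVs, only ASVs with 10 counts in 4 of the 12 mice of a comparison were tested, which left 9 to 22 of the 598. An ASV with counts in only 1 group passed this filter through that group alone, so the tested members are not a sample of the family. For model against control mice 11 were tested, 4 fell and 0 rose, where 23.1% of all 411 ASVs tested fell. These were ASV_48978 of Oscillospira (adjusted p = 0.00548) and the Ruminococcus ASVs ASV_44232 (adjusted p = 0.0119), ASV_29808 and ASV_32206 (both adjusted p = 0.00551). ASV_29808 had 366 counts in 5 control mice and ASV_32206 had 244 in 4, and both had 0 counts in all mice on HFru. Against the limit of 3 counts per model library, control mice held at least 86.0-fold more ASV_48978, at least 33.3-fold more ASV_29808 and at least 21.6-fold more ASV_32206, and at least 48.1-fold, 21.4-fold and 13.3-fold more without control mouse 4, the highest. The number of member ASVs called was 1 to 5 when 1 mouse at a time was left out, with 1 called without control mouse 3, 4 or 5 and 2 without control mouse 1. Each of the 4 kept its call wherever it still met the filter.

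With tyrosol against model mice 14 ASVs of the family were tested, 4 rose and 0 fell, where 7.55% of all 424 ASVs rose. They were ASV_5657 (log2 fold change 8.69 ± 2.21 SE, adjusted p = 0.0138), ASV_258 (adjusted p = 0.0138), ASV_87645 of Oscillospira (adjusted p = 0.0151) and ASV_68141 of Subdoligranulum (adjusted p = 0.0138). Against the limit of 3 counts per model library, ASV_258 was at least 54.8-fold higher, ASV_68141 at least 27.8-fold and ASV_87645 at least 10.6-fold. The fold change of ASV_5657 rests on the 10 counts of model mouse 3, and its log2 value ran from 8.22 to 12.07 when 1 mouse at a time was left out. Without tyrosol mouse 4, which held 305 of its 539 counts in tyrosol mice, ASV_68141 was at least 14.9-fold higher. ASV_87645 was even among tyrosol mice, with 29, 20, 40, 46, 31 and 29 counts.

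With hydroxytyrosol against model mice 21 were tested, 4 rose and 0 fell, where 8.28% of all 290 ASVs rose. ASV_5657 (adjusted p = 0.0332), ASV_87645 and ASV_68141 (both adjusted p = 0.00404) were among them as with tyrosol, and the fourth was ASV_11167, an ASV without a genus that had 7 to 24 counts in each hydroxytyrosol mouse and 0 in model mice (adjusted p = 0.00434, at least 4.92-fold higher). The model mice are the same in both comparisons. ASV_5657 lost its call when hydroxytyrosol mouse 3 or model mouse 1, 2, 4 or 5 was left out, with adjusted edgeR p-values from 0.0557 to 0.217, and without hydroxytyrosol mouse 3 the count of called members was 2. With salidroside against model mice 9 were tested and 0 called, where 4.19% of all 358 ASVs were called. At an unadjusted edgeR p under 0.05 there was 1 of the 9 (8.1% of all ASVs), and DESeq2 called 1 (5.87% of all ASVs). With no filter on low counts edgeR called 0 member ASVs in each of the 7 comparisons, and from 0 to 11 of all 5249 to 7652 ASVs then tested.

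Set side by side, the 3 compounds gave 3 pairs. The mean family share of salidroside mice differed from that of tyrosol mice by -0.769 points (-1.43 to -0.130) with an exact permutation p of 0.026 and an adjusted p of 0.218, where 19.1% of 47 families had an unadjusted p under 0.05. The unadjusted p was above 0.05 without salidroside mouse 3, 5 or 6 or tyrosol mouse 1, 2 or 4, and it was 0.0606 with Acinetobacter or with the aerobic or facultative families taken out of the total (exact permutation test). Against hydroxytyrosol mice the difference was -0.659 points (-1.30 to -0.00253, exact p = 0.0476, adjusted 0.312), where 14.6% of 48 families had an unadjusted p under 0.05, and p stayed under 0.05 only without salidroside mouse 1 or 4 or hydroxytyrosol mouse 1. With Acinetobacter taken out this difference was -0.157 points (exact p = 0.812), and without the aerobic or facultative families its exact p was 0.338. For hydroxytyrosol and tyrosol, which differ by a hydroxyl group, the difference was -0.110 points (-0.802 to 0.543, exact p = 0.716), and the interval does not show that they act alike. Oscillospira differed by -0.670 points between salidroside and tyrosol, the glucoside and its aglycone (-1.21 to -0.102, exact p = 0.0238, adjusted over 87 genera 0.350). It differed by -0.495 points between salidroside and hydroxytyrosol (-1.05 to 0.0805, exact p = 0.0758) and by -0.176 points between hydroxytyrosol and tyrosol (-0.712 to 0.356, exact p = 0.478). Subdoligranulum differed by -0.0577, -0.0431 and -0.0146 points in these 3 pairs, with exact p-values of 0.219, 0.0671 and 0.861. The log2 ratio to Lachnospiraceae differed between salidroside and tyrosol by -1.49 (-2.85 to -0.11, exact p = 0.0368, adjusted 0.129), and p was above 0.05 without any 1 of salidroside mice 3 to 6 or tyrosol mice 3 to 6.

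A few Oscillospira ASVs were called higher with hydroxytyrosol than with tyrosol or salidroside. Each had 0 counts in the group it was called against, so it met the filter through the hydroxytyrosol mice alone. ASV_60876 was called only against salidroside. In edgeR's quasi-likelihood test 2 of 22 member ASVs were higher with hydroxytyrosol than with tyrosol, where 3.76% of all 319 ASVs were, namely the Oscillospira ASVs ASV_936 (adjusted p = 0.011, at least 42.7-fold) and ASV_80349 (adjusted p = 0.0108, at least 10.8-fold). Against salidroside, 3 of 19 were higher with hydroxytyrosol, where 3.11% of all 225 ASVs were, and these were ASV_936, ASV_80349 (both adjusted p = 0.0262) and ASV_60876 (adjusted p = 0.0261), all of Oscillospira. ASV_80349 had 161 counts in 5 hydroxytyrosol mice, 19, 6 and 22 in model mice 2, 3 and 6 and 27 in control mouse 4. ASV_60876 had 208 counts in 5 hydroxytyrosol mice, 134 in 4 tyrosol mice and 10 in model mouse 1. Leaving out 1 mouse at a time gave 0 to 2 calls against tyrosol (0 without hydroxytyrosol mouse 2, 5 or 6, 1 without 1 or 4) and 0 to 3 against salidroside (0 without salidroside mouse 1, 2, 5 or 6, 1 without hydroxytyrosol mouse 2, 5 or 6). For salidroside against tyrosol 0 of 15 were called, as were 0% of all 394 ASVs, and 1 member had an unadjusted p under 0.05, as had 7.11% of all ASVs.

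Other anaerobic genera of Clostridiales were listed for comparison, 23 in all, of which 18 were found and 4 to 9 tested per comparison. For model against control mice 3 of 4 passed edgeR's test, of which Blautia and [Ruminococcus] rose (log2 fold changes 10.17 ± 2.39 and 6.23 ± 1.79 SE) and Clostridium of Clostridiaceae fell (-6.18 ± 1.77), where 18.9% of all genera passed. With tyrosol against model mice 1 of 8 passed, Christensenella (8.05 ± 1.61, adjusted p = 0.00789), where 2.08% of all genera passed, and in the other 5 comparisons 0 passed. The median log2 fold change of the list was 1.92 for model against control and 0.28 for tyrosol against model mice, beside -0.14 and -0.98 over all genera tested.

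Among 48 families found in at least 20 mice, the 3 whose log10 share followed that of Ruminococcaceae most closely over the 30 mice were S24-7 and [Odoribacteraceae], both of Bacteroidales, and the unclassified Clostridiales. Their Spearman rho values were 0.71, 0.70 and 0.66 and Pearson's r 0.71, 0.74 and 0.75. The shares come from the same libraries and total. With the 2 mice farthest from the median of Ruminococcaceae left out, r was 0.59, 0.67 and 0.67. Within the 5 groups r ranged from 0.23 to 0.94 for S24-7, from 0.65 to 0.84 for [Odoribacteraceae] and from 0.17 to 0.88 for the unclassified Clostridiales. Each had a Spearman permutation p of at most 5e-05 and an adjusted p of at most 0.0008 over the 48 families, which were ranked by this measure. For Lachnospiraceae rho was 0.39 and r 0.48.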

How the data were processed

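Fecal 16S rRNA gene amplicons of 30 mice were sequenced by the authors on a HiSeq2500 instrument. According to their methods, reads were merged with FLASH 1.2.11, filtered with QIIME 1.7.0 and cleared of chimeras with UCHIME, and the submitters' processing notes also name cutadapt. The methods describe clustering into operational taxonomic units, whereas the deposited tables name ASVs and the deposited read log has a denoising step. Which of these made the units was not settled, and the ASV numbers, overlaps and named ASVs depend on it. The authors deposited 3 tables of whole-number counts per ASV, of which the filtered table was used here, with the rarefied and unfiltered tables as alternatives. The reference and version behind the taxonomy are not given in the sources used here. Mice carry the numbers of their sample titles, columns were matched through the description label, and 0 columns were left unmapped. A pioglitazone group of the study was not analysed here.

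Counts were summed per family and genus and divided by the mouse's total. Shares, ASV numbers and ratios were compared through group means with an exact permutation test, two-sided, over the 924 splits of 12 mice (smallest p 0.0022), with 95% intervals from inverting the test, which assumes a shift. With 1 of the 12 mice left out there are fewer splits, and the smallest p is 0.00433. Taxa needed 10 counts in 4 of the 12 mice, and p-values were adjusted by Benjamini-Hochberg over all families or genera tested in a comparison, or over the 7 comparisons for ratios and makeup. In the makeup each part of the family was adjusted on its own. Tests over 5 groups and correlations used 100000 permutations. Counts were tested with edgeR 4.0.16 (quasi-likelihood, TMM) over all features that met the filter, with DESeq2 1.42.0 and limma 3.58.1 on centred log-ratios as alternatives (R 4.3.3, Python 3.11.15, NumPy 2.4.6, SciPy 1.17.1, pandas 2.3.3). In data simulated for tyrosol against model mice with 382 ASVs, edgeR called 50 of 50 ASVs raised 8-fold and 7 of 208 left unchanged. The simulated ASVs had the same expected share in every mouse of a group and a common spread. None was made absent from a group, as many real ASVs were. The simulation therefore does not give the rate of true or false calls in the real counts.

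The ASVs named are the 10 with the highest mean share over the 30 mice and up to 5 more per comparison with the smallest adjusted edgeR p under 0.05. The members and lists were chosen with earlier results of these data known. Leaving out each mouse at the ASV level was added after seeing the data. No 2 mice of a group had identical counts. Mice that share a number in the labels did not deviate together (correlations from -0.41 to 0.47 over 128 genera, with at most 3 of 6 pairs over 0.1), so the numbers were not used to pair mice. Totals ranged from 41862 to 106609 counts per mouse.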

Additional observations from a re-analysis of the deposited data

Results flagged for a closer look

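In 8 of 35 sets of 6 mice, the highest or lowest mouse stood apart from the others by Dixon's test at the 95% level, which chance does in about 1 in 20 sets. Since the family, its genera and its unclassified part share counts, these sets are not independent. Model mouse 1 was high in the share of Ruminococcaceae (2.01%), of Oscillospira (0.989%) and of the ASVs without a genus (0.805%). The unclassified part was also high in control mouse 4 (0.430%) and hydroxytyrosol mouse 6 (0.580%) and low in tyrosol mouse 3 (0.0432%). Subdoligranulum was high in tyrosol mouse 4 (0.289%), and the single count of control mouse 5 (0.00135%) stood apart because the other control mice had 0 counts.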

How the results depend on the processing

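Differences are in percentage points, and p-values are unadjusted exact permutation p-values unless edgeR is named. With the aerobic or facultative families taken out of the total, model minus control became 0.344 for the family and 0.484 for Oscillospira, salidroside minus tyrosol -3.95 for the family (exact p = 0.0606), salidroside minus hydroxytyrosol -1.87 for the family (p = 0.338) and 0.0508 for Ruminococcus, and hydroxytyrosol minus model -0.0892 for the unclassified part. With Acinetobacter taken out, the family differed by 2.41 for tyrosol against model (exact p = 0.0584), by -2.32 for salidroside against tyrosol (p = 0.0606) and by -0.157 for salidroside against hydroxytyrosol (p = 0.812). In that setting signs turned for the unclassified part in hydroxytyrosol against model (-0.185), hydroxytyrosol against tyrosol (-0.119) and salidroside against hydroxytyrosol (0.0298), and for Ruminococcus in hydroxytyrosol against tyrosol (-0.00824) and salidroside against hydroxytyrosol (0.0302). For hydroxytyrosol against model the family gained p under 0.05 on log10 shares (0.651, exact p = 0.0238), on mean ranks (4.33, p = 0.0411) and in the rarefied table (0.836, p = 0.0455), and for salidroside against hydroxytyrosol it lost it on mean ranks (-4, p = 0.0649). Signs without a call turned on log10 shares and on mean ranks, in that order, for the unclassified part in salidroside (0.0837, 0.667) and tyrosol (0.229, 2.67) against model, for Ruminococcus in tyrosol (0.0574, 0.333) and hydroxytyrosol (0.326, 1.67) against model and salidroside against tyrosol (-0.191, -2), and for Subdoligranulum in hydroxytyrosol against tyrosol (0.111, 1.33). On mean ranks the unclassified part also turned in hydroxytyrosol against tyrosol (-1). The cause was not tested.

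The difference in ASV number for hydroxytyrosol against tyrosol was 7.5 when an ASV needed 2 counts (exact p = 0.0584), 8.83 in the filtered table (p = 0.0996) and 6.83 at 10000 counts per mouse (p = 0.0693), and for salidroside against model it was -1 in the filtered table. With the replicate number as a block the exact p was 0.0625 for tyrosol against model (0.931), 0.156 for salidroside against hydroxytyrosol (-0.659) and 0.125 for the log2 ratio of salidroside against tyrosol (-1.49), where the design allows no p under 0.03125. The block left 0 member ASVs called for model against control, and 14 of all 411 ASVs against 125 without it. Numbers of member ASVs called (4, 0, 4, 4, 0, 2 and 3 in the order of comparisons used here) became 0 in every comparison without a filter, where 5249 to 7652 ASVs are tested and 0 to 11 of all ASVs are called. With 50 counts in 4 mice 0 members were tested for model against control, so that its count of 0 says nothing, and the calls were 2 of 4 tested for tyrosol and 0 of 3 for hydroxytyrosol against model, 1 for hydroxytyrosol against tyrosol and 1 for salidroside against hydroxytyrosol. For salidroside against model DESeq2, limma on log-ratios and a model of all 30 mice called 1, and for hydroxytyrosol against model limma called 8. The share of all ASVs called is not given here for the filter of 50 counts, limma or the model of all 30 mice. Those counts of member ASVs are thus not read as particular to the family. At the genus level DESeq2 and the model of all 30 mice called 1 member for model against control (Ruminococcus), and DESeq2, limma and that model called 1 (Subdoligranulum) for tyrosol and for hydroxytyrosol against model, the last also without TMM (1).

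Leaving out 1 mouse at a time gave the following ranges. The family share ran from -1.38 to -0.601 for model against control, 0.0247 to 0.443 for salidroside against model, 0.753 to 1.21 for tyrosol against model, 0.684 to 1.10 for hydroxytyrosol against model, -0.248 to 0.0685 for hydroxytyrosol against tyrosol, -0.907 to -0.591 for salidroside against tyrosol and -0.797 to -0.521 for salidroside against hydroxytyrosol, and the last 2 lost p under 0.05 for 6 and 9 of the 12 mice. The ASV number ran from -23.7 to -8.53 for model against control, 8.17 to 12.4 for hydroxytyrosol against tyrosol (p under 0.05 lost for 7 of 12 mice) and -3.73 to 4.13 for salidroside against model. The log2 ratio ran from 1.14 to 2.22 for tyrosol against model, 0.07 to 1.15 for hydroxytyrosol against model, -0.35 to 0.73 for salidroside against model, -1.82 to -1.15 for salidroside against tyrosol (p under 0.05 lost for 8 of 12 mice) and -1.43 to -0.75 for hydroxytyrosol against tyrosol. The share of Oscillospira ran from -0.516 to -0.164 for model against control, 0.0907 to 0.377 for salidroside against model and -0.320 to -0.0418 for hydroxytyrosol against tyrosol. As a percent of the family it ran from 7.74 to 22.1 for salidroside against model, -21.6 to -7.62 for salidroside and -9.59 to -4.94 for hydroxytyrosol against tyrosol, and its rise with tyrosol and with hydroxytyrosol over model mice kept p under 0.05 (24.1 to 34.0 and 16.8 to 26.7). Ruminococcus ran from -0.924 to -0.565 for model against control (p under 0.05 lost for 8 of 12 mice), -0.0469 to -0.00288, -0.0521 to -0.00995 and -0.0320 to 0.0102 for salidroside, tyrosol and hydroxytyrosol against model and -0.00752 to 0.0129 for salidroside against tyrosol, and Subdoligranulum from 0.0459 to 0.102 for tyrosol against model, -0.0737 to -0.0175 for salidroside against tyrosol and -0.0306 to 0.0256 for hydroxytyrosol against tyrosol. The unclassified part ran from -0.0628 to 0.111 for model against control, -0.102 to 0.0562, -0.0471 to 0.111 and -0.0234 to 0.161 for salidroside, tyrosol and hydroxytyrosol against model and -0.0159 to 0.0706 for hydroxytyrosol against tyrosol. Member ASVs called ran from 1 to 5 for model against control, 0 to 1 for salidroside and 2 to 5 for hydroxytyrosol against model, 0 to 2 for hydroxytyrosol against tyrosol and 0 to 3 for salidroside against hydroxytyrosol, and member genera from 0 to 1 for model against control and hydroxytyrosol against model. Under the other alternatives, 178 of 219 values for family, ASV number, ratio, makeup and counts of calls were unchanged in direction and side of the threshold (counts within 1.5 times), as were 332 of 386 values for single genera and ASVs and for fold changes in edgeR. Mice with few counts of the family, such as model mouse 4 with 17, limit what can be said of its genera there.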
